A study of Mus musculus with 7 samples.

Results

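The genes described here are 46 regulators and machinery genes of the cell division cycle, chosen as a list of gene symbols and divided by the phase they are best known for into 24 G1/S genes and 22 G2/M genes. Members were the probe sets carrying 1 of these symbols and no other, with the probe set of highest mean over all arrays where a gene had several. Of the 46 genes, 45 were measured, out of 19937 genes in all, and all 45 lay above the median signal of every array and were among the 16801 genes tested. The expression of Ccnb1 was not analysed here, though its promoter window is counted among those of the G2/M genes. Haus6 and Usp1 are listed because an earlier analysis of these data had named them in the knockdown, so their values there are a description.

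Expression was measured on 7 Affymetrix arrays of mouse embryonic fibroblasts that had immortalised spontaneously, seeded at 50000 cells per well and grown for 2 days in medium with serum. The wild-type group held 3 clones. The knockout group held 2 clones from tenascin-C (Tnc) knockout mice, and the knockdown group 2 clones of wild-type origin carrying a stably transfected short hairpin RNA against Tnc. No group with a control hairpin was analysed here, and the labels do not tie the clones to separate mice, so p-values here reflect only how much these clones vary. The design sets fibroblasts that make tenascin-C, a matrix glycoprotein that modulates cell adhesion, against fibroblasts lacking or depleted of it.

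The cell cycle turns on cyclin-dependent kinases, which are active only when bound to a cyclin. In G1, mitogen and adhesion signals raise D-type cyclins, which with Cdk4 and Cdk6 inactivate the retinoblastoma protein and release E2F factors, and E2F then switches on cyclin E, replication licensing and nucleotide synthesis genes. Genes of G2 and mitosis are switched on later, largely through the MuvB complex with B-Myb and FoxM1, at promoters with an element called CHR and with CCAAT boxes bound by NF-Y. A bulk array averages over cells in all phases, so a changed share of cells in a phase and a changed amount of RNA per cell cannot be told apart.

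Promoter windows from RefSeq (GRCm38.p6, 250 bases before to 50 after each gene's start) were matched for 36 members, 19 of G1/S and 17 of G2/M, and searched on both strands. An E2F motif (TTTGGCGC, TTTGCCGC, TTTCGCGC or TTTCCCGC) was found in 9 of 19 G1/S genes (47.4%), 1 of 17 G2/M genes (5.88%) and 2.6% of all 27025 genes in the table. A CHR motif (TTTGAA or TTCGAA) was found in 13 of 17 G2/M genes (76.5%), 3 of 19 G1/S genes (15.8%) and 21.7% of all genes. A CCAAT box (CCAAT) was found in 15 of 17 G2/M genes (88.2%), 12 of 19 G1/S genes (63.2%) and 41.1% of all genes. A match is a description of letters, not a shown binding site.

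**Figure D1:**
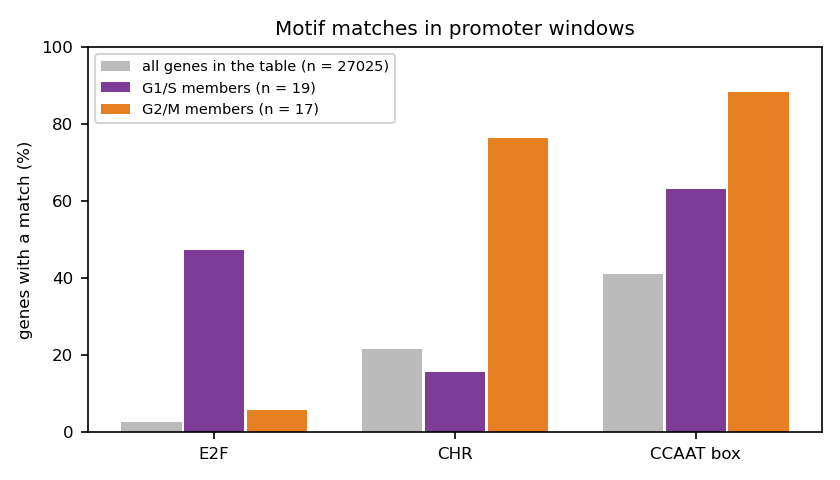
Percent of genes whose promoter window holds each motif on either strand (vertical axis), for all 27025 genes in the RefSeq table and the 19 G1/S and 17 G2/M genes with a window. E2F matches stand at 47.4% in G1/S genes and CHR matches at 76.5% in G2/M genes, against 2.6% and 21.7% of all genes.

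The 250 bases before the start are shown for 5 genes described in the comparisons, 5′ to 3′ on the gene's strand, with motif letters in capitals (a motif on the opposite strand reads as its reverse complement). Cdc6 (chr11:98907901-98908150, plus strand) and Cdc25a (chr9:109875329-109875578, plus strand) are G1/S genes whose knockdown arrays lay below wild type. Ccnb2 (chr9:70421555-70421804, minus strand) and Bub1b (chr2:118597961-118598210, plus strand) are G2/M genes whose knockdown arrays lay above both wild type and knockout. Haus6 (chr4:86612056-86612305, minus strand) was listed for its low knockdown values. Cdc6 holds an E2F match 138 bases before the start, on the opposite strand, and Cdc25a one at 67 bases, with CCAAT boxes on the opposite strand at 131 and 81 bases. Ccnb2 holds a CHR match at 167 bases and CCAAT boxes at 87, 54 and 21 bases. Bub1b holds a CHR match at 188 bases and, on the opposite strand, a CCAAT box at 113 bases, and Haus6 a CCAAT box on the opposite strand at 141 bases. None of these matches overlap one another. Members with the same motifs went both ways in knockdown. Mcm6, with an E2F match, was higher (log2 difference 0.13), and Cdc20, with a CHR match, was lower (-0.25).
Cdc6: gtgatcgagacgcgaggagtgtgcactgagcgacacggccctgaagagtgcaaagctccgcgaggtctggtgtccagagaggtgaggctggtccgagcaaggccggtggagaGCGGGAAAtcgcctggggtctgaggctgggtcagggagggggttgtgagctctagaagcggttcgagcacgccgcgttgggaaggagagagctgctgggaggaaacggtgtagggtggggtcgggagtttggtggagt
Cdc25a: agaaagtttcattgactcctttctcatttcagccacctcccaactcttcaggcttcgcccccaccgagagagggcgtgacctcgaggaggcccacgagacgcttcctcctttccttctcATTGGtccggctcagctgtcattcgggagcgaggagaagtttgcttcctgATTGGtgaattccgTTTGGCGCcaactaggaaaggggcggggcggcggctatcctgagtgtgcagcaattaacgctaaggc
Ccnb2: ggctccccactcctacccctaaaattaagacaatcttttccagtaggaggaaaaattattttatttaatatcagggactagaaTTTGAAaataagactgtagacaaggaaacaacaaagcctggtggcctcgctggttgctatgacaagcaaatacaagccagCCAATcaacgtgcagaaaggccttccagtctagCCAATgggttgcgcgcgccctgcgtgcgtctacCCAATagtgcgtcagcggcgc
Bub1b: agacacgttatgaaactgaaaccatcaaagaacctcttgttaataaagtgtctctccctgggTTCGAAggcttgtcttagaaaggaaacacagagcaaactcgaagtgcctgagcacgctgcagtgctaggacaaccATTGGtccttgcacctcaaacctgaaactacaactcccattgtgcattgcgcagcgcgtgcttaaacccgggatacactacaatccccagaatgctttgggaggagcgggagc
Haus6: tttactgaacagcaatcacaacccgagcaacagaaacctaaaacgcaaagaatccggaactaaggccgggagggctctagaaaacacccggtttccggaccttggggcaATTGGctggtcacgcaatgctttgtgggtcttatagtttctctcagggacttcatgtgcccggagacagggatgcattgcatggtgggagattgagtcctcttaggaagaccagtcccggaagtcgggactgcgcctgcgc

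The labels were checked first. Tnc (gene identifier 21923, probe set 10513739) had log2 signals of 10.89, 11.42 and 11.38 on the wild-type arrays, 8.05 and 8.51 on the knockout arrays and 7.34 and 6.52 on the knockdown arrays, so both deficient groups lay below every wild-type array. The knockout arrays lay above the knockdown arrays and above their own array medians (5.41 and 5.38), and why was not tested. The check therefore sets both deficient groups apart from wild type but does not tell knockout from knockdown. Limma gave differences of -2.95 ± 0.295 SE (adjusted p = 0.0420) in knockout and -4.30 ± 0.295 SE (adjusted p = 0.0339) in knockdown. Of 12 fibroblast markers 10 lay above the median of every array, against 0 of 6 endothelial, 1 of 5 macrophage and blood, 1 of 6 epithelial and 2 of 6 skeletal muscle markers measured. Sex-linked genes stood apart on knockout array 2 and knockdown array 2, and their part in the results was not tested beyond leaving out both arrays.

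The arrays were first compared over each phase group. For G1/S genes the median log2 deviation from each gene's own mean was 0.14, 0.036 and 0.059 on the wild-type arrays, -0.060 and 0.060 on the knockout arrays and -0.25 and 0.026 on the knockdown arrays. Knockdown array 1 was the low one, with 3 of 24 G1/S genes above their own mean, against 13 of 24 on knockdown array 2. For G2/M genes the medians were 0.050, 0.018 and 0.019 in wild type, -0.21 and -0.016 in knockout and -0.0085 and 0.13 in knockdown. Here knockout array 1 was low, with 2 of 21 genes above their own mean. Over all genes tested these medians lay between -0.024 and 0.015.

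**Figure D2:**
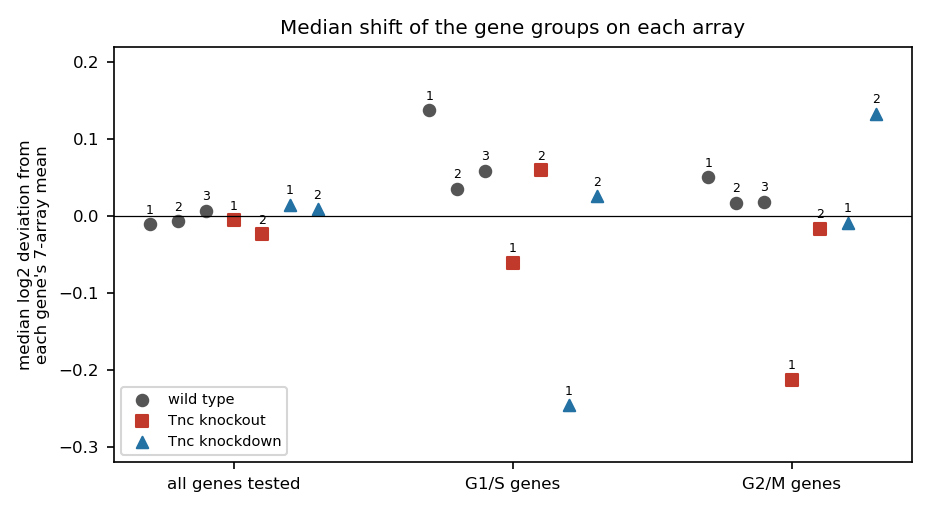
Median over genes of the log2 deviation from each gene's mean over the 7 arrays (vertical axis), for all 16801 genes tested, 24 G1/S genes and 21 G2/M genes; each point is 1 array, numbered by clone. Knockdown array 1 stands at -0.25 for G1/S genes and knockout array 1 at -0.21 for G2/M genes, below the other arrays.

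The 2 clones of a deficient group differed by amounts of the same order as the group's difference from wild type. The gap between the arrays of a deficient group exceeded that group's difference from wild type for 14 of 24 G1/S genes and 12 of 21 G2/M genes in knockout, and for 13 of 24 and 13 of 21 in knockdown. The median gap on the log2 scale was 0.14 for G1/S and 0.27 for G2/M genes in knockout, and 0.24 and 0.22 in knockdown. The median absolute differences from wild type were 0.17 and 0.22 in knockout, and 0.22 and 0.18 in knockdown. No share over all genes was counted. A gap between single arrays varies more than a difference of means, so these counts do not measure an effect.

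In knockout compared with wild-type fibroblasts, most of the listed G2/M genes lay slightly lower and G1/S genes were divided, with no single member past the test. Of 21 G2/M genes 18 were lower and 3 higher, with a median log2 difference of -0.22 against -0.028 over all genes tested. Of 24 G1/S genes 16 were lower and 8 higher, with a median of -0.059. Over all genes 57.3% were lower and 42.6% higher. Of 43 mitotic genes outside the list, 27 were lower and 16 higher, with a median of -0.083, nearer to that of all genes. Limma called 0 of the 45 members with adjusted p under 0.05, where 0.167% of all genes passed (0.119% higher and 0.0476% lower). Without adjustment (p under 0.05), 4 G2/M genes were lower and 0 higher, and 3 G1/S genes were lower and 1 higher, where 5.5% of all genes were lower and 7.33% higher. Both knockout arrays lay below all wild-type arrays for 9 G2/M and 5 G1/S genes and above them for 0 and 1, against 15.3% below and 13.2% above over all genes.

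Ccna2 encodes cyclin A2, which drives S phase and entry into mitosis. Its log2 signal was 10.60, 10.51 and 10.57 on the wild-type arrays, 10.21 and 10.24 on the knockout arrays and 10.50 and 10.73 on the knockdown arrays. The knockout arrays lay below every other array, and the knockdown arrays spanned the wild-type range. The difference from wild type was -0.33 ± 0.0894 SE (adjusted p = 0.217) in knockout and 0.056 ± 0.0894 SE (adjusted p = 0.827) in knockdown.

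Plk1, the polo kinase of mitotic entry and spindle assembly, stood at 9.75, 9.92 and 10.03 in wild type, 9.53 and 9.60 in knockout and 9.96 and 9.85 in knockdown. Knockout lay below all other arrays and knockdown within the wild-type range. The differences were -0.34 ± 0.101 SE (adjusted p = 0.264) in knockout and 0.0017 ± 0.101 SE (adjusted p = 1) in knockdown.

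Ccnb2, a B-type cyclin that activates Cdk1 at mitosis, stood at 10.02, 10.07 and 10.02 in wild type, 9.55 and 9.89 in knockout and 10.10 and 10.32 in knockdown. Knockout arrays were below and knockdown arrays above every wild-type array. The differences were -0.31 ± 0.123 SE (adjusted p = 0.376) and 0.18 ± 0.123 SE (adjusted p = 0.576).

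Mki67, the proliferation antigen that coats mitotic chromosomes, stood at 9.05, 9.06 and 9.29 in wild type, 8.57 and 8.84 in knockout and 9.10 and 8.49 in knockdown. Knockout lay below wild type (-0.43 ± 0.199 SE, adjusted p = 0.438), and the knockdown clones lay on both sides of the lowest wild-type array (-0.34 ± 0.199 SE, adjusted p = 0.506). Birc5, the survivin subunit of the chromosomal passenger complex, stood at 8.48, 8.10 and 8.11 in wild type and 7.59 and 8.11 in knockout. Its difference of -0.38 ± 0.190 SE (adjusted p = 0.470) came mainly from knockout array 1.

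Among G1/S genes in knockout, Rrm1, the large subunit of ribonucleotide reductase, stood at 11.38, 11.24 and 11.40 in wild type, 10.96 and 11.12 in knockout and 11.17 and 11.04 in knockdown. Both deficient groups lay below wild type, with differences of -0.30 ± 0.0939 SE (adjusted p = 0.291) and -0.24 ± 0.0939 SE (adjusted p = 0.346). Cdk6, a partner kinase of D-type cyclins, stood at 9.13, 8.70 and 9.08 in wild type, 7.90 and 8.66 in knockout and 8.54 and 8.72 in knockdown. Its knockout difference of -0.69 ± 0.248 SE (adjusted p = 0.341) was larger in size than that of the other members, with knockout array 1 far below array 2.

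Ccnd2, a D-type cyclin, stood at 11.32, 11.92 and 11.62 in wild type, 12.38 and 11.84 in knockout and 11.31 and 11.70 in knockdown. Both deficient groups overlapped wild type, and the knockout arrays lay above the knockdown arrays, with a knockout difference of 0.49 ± 0.243 SE (adjusted p = 0.467). Mcm7, a subunit of the replicative helicase, stood at 10.34, 9.90 and 10.11 in wild type and 9.80 and 9.81 in knockout, so both knockout arrays were below wild type (-0.31 ± 0.164 SE, adjusted p = 0.490).

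Single arrays moved these counts. At an unadjusted p under 0.05, 8 members differed with all arrays, 16 without knockout array 2, and 4, 4 and 5 without knockout array 1, wild-type array 3 or wild-type array 1. The G2/M median was -0.10 without knockout array 1 and -0.27 without knockout array 2, where 21 of 21 genes were lower. The G1/S median changed sign without knockout array 1 (0.031). With each array centred on its median, 16 of 21 G2/M and 13 of 24 G1/S genes were lower.

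In the knockdown, set against wild-type fibroblasts, more G1/S genes were lower than higher, but not without knockdown array 1, and mitotic genes were split, with 0 members past the test. Of 24 G1/S genes 17 were lower and 7 higher, with a median log2 difference of -0.19 against 0.028 over all genes tested. Of 21 G2/M genes 10 were lower and 11 higher, with a median of 0.0017. Over all genes 43.2% were lower and 56.8% higher. Limma called 0 of the 45 members with adjusted p under 0.05, where 0.0179% of all genes passed (0% higher). By unadjusted p (under 0.05), 7 G1/S genes were lower and 0 higher, and 1 G2/M gene was lower and 3 higher, where 6.99% of all genes were lower and 7.12% higher. Both knockdown arrays lay below all wild-type arrays for 11 G1/S and 4 G2/M genes, against 12.9% of all genes, and above them for 0 and 4, against 17.5%. Without Usp1 the G1/S median was -0.15, with 6 of 23 genes lower at an unadjusted p under 0.05 and 10 below all wild-type arrays. Without Haus6 those counts were 0 and 3 of 20 G2/M genes.

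Ccnd1 encodes cyclin D1, which links mitogen and adhesion signals to Cdk4 and Cdk6. It stood at 11.13, 10.88 and 10.82 in wild type, 11.14 and 11.06 in knockout and 10.35 and 10.42 in knockdown. The knockdown arrays were the lowest of all 7, 1.47-fold below the wild-type mean (-0.56 ± 0.111 SE, adjusted p = 0.162), while knockout overlapped wild type (0.16 ± 0.111 SE, adjusted p = 0.576).

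Ccne2, a cyclin E gene that with Cdk2 starts S phase, stood at 7.44, 7.49 and 7.33 in wild type, 7.70 and 7.58 in knockout and 7.02 and 6.92 in knockdown. The knockout arrays were above and the knockdown arrays below every wild-type array, with differences of 0.22 ± 0.0869 SE (adjusted p = 0.380) and -0.45 ± 0.0869 SE (adjusted p = 0.162). Its paralogue Ccne1 stood at 9.40, 9.25 and 9.47 in wild type, 9.32 and 9.37 in knockout and 9.21 and 9.24 in knockdown. Its differences were -0.030 (adjusted p = 0.910) and -0.15 (adjusted p = 0.516), and the knockdown arrays lay just below the wild-type range.

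Cdc25a, the phosphatase that activates Cdk2, stood at 9.04, 8.88 and 8.80 in wild type, 8.71 and 8.96 in knockout and 8.51 and 8.55 in knockdown. The knockdown arrays were lowest (-0.37 ± 0.110 SE, adjusted p = 0.238) and the knockout arrays overlapped wild type. Cdk4, the kinase partner of D-type cyclins, stood at 11.97, 11.86 and 11.85 in wild type, 11.49 and 12.05 in knockout and 11.66 and 11.90 in knockdown. All 3 groups overlapped, with differences of -0.12 (adjusted p = 0.786) in knockout and -0.11 (adjusted p = 0.821) in knockdown.

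Replication licensing loads the MCM helicase onto origins through Cdc6 and Cdt1. Cdc6 stood at 8.47, 7.92 and 8.05 in wild type, 8.06 and 8.08 in knockout and 7.73 and 7.71 in knockdown, a knockdown difference of -0.43 ± 0.162 SE (adjusted p = 0.323). Cdt1 stood at 8.85, 8.78 and 8.86 in wild type, 8.84 and 8.78 in knockout and 8.25 and 8.62 in knockdown, a knockdown difference of -0.39 ± 0.120 SE (adjusted p = 0.246). For both loaders the knockdown arrays lay below all others and the knockout arrays overlapped wild type. The promoter of Cdc6 printed above holds an E2F match, but whether matches go with the direction of change was not tested.

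The 6 MCM subunit genes did not all move one way. In knockdown 4 were lower and 2 higher (median -0.18), from -0.31 for Mcm2 to 0.13 for Mcm6. In knockout also 4 were lower and 2 higher (median -0.13), from -0.31 for Mcm7 to 0.19 for Mcm4. The knockdown clones stood apart, with an MCM median deviation of -0.28 on knockdown array 1 and 0.13 on knockdown array 2. Mcm2 stood at 9.71, 9.52 and 9.60 in wild type, 9.61 and 9.17 in knockout and 9.12 and 9.47 in knockdown, with differences of -0.22 (adjusted p = 0.601) and -0.31 (adjusted p = 0.470). Only its knockdown arrays lay outside the wild-type range on both clones.

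Pcna, the sliding clamp of DNA polymerases, stood at 11.98, 11.92 and 12.19 in wild type, 11.96 and 12.17 in knockout and 12.18 and 12.25 in knockdown. On this probe set both deficient groups overlapped wild type, and the knockout arrays lay below the knockdown arrays. The differences from wild type were 0.037 (adjusted p = 0.913) in knockout and 0.18 (adjusted p = 0.525) in knockdown, and a second Pcna probe set gave 0.18 and 0.085. That probe set stood at 11.07, 11.04 and 11.13 in wild type, 11.19 and 11.35 in knockout and 11.18 and 11.15 in knockdown. There both deficient groups lay above wild type and the knockout arrays above the knockdown arrays, so the probe sets differ in order. E2f1, the activator E2F, stood at 7.82, 7.95 and 8.06 in wild type, 7.84 and 7.97 in knockout and 8.31 and 7.97 in knockdown. Both deficient groups overlapped wild type, and the higher knockout array had the same value as the lower knockdown array, with differences of -0.038 (adjusted p = 0.923) and 0.20 (adjusted p = 0.558). The other G1/S genes (Ccnd3, Cdk2, Mcm3, Mcm5, Mcm6, Rrm2, Tyms and E2f2) differed by -0.32 to 0.19 in knockout and -0.28 to 0.16 in knockdown.

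Usp1 (gene identifier 230484, chromosome 4, probe set 10506118) is the deubiquitinase that acts on PCNA and FANCD2 in DNA damage tolerance and repair. It stood at 8.28, 8.10 and 8.05 in wild type, 7.82 and 7.82 in knockout and 7.22 and 7.21 in knockdown. The 3 groups did not overlap, with knockdown lowest. The knockdown difference was -0.92 ± 0.0889 SE (adjusted p = 0.0928), or 1.90-fold, and the knockout difference -0.32 ± 0.0889 SE (adjusted p = 0.229). The deposited values of both knockout arrays were identical for Usp1, as they were for 6.02% of all genes tested.

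Haus6 (gene identifier 230376, chromosome 4, probe set 10514201) is a subunit of augmin, a complex that promotes microtubule nucleation inside the spindle. It stood at 8.76, 8.63 and 8.52 in wild type, 8.37 and 8.39 in knockout and 7.59 and 7.42 in knockdown. The groups did not overlap and the knockdown arrays were lowest. The knockdown difference was -1.13 ± 0.0988 SE (adjusted p = 0.0928), or 2.18-fold, and the knockout difference -0.25 ± 0.0988 SE (adjusted p = 0.374). Haus6 and Usp1 ranked 4 and 5 of 16801 genes by p in the knockdown. Both were listed because an earlier analysis of these data had named them there, so these ranks follow from that choice. Of the 45 members 5 are on chromosome 4, as is Tnc: Haus6, Usp1, Ccne2, Cdc20 and E2f2. The last of these differed by -0.17 in knockout and 0.067 in knockdown, Ccne2 by 0.22 and -0.45, and Cdc20 by -0.22 and -0.25. A part for chromosome position was not tested.

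Among mitotic genes in knockdown, Kif20a, a kinesin of the cytokinetic midzone, stood at 9.59, 9.80 and 9.91 in wild type, 9.32 and 9.75 in knockout and 10.21 and 10.32 in knockdown. The knockdown arrays lay above all others (0.50 ± 0.156 SE, adjusted p = 0.258), and knockout overlapped wild type (-0.23 ± 0.156 SE, adjusted p = 0.567). Bub1b, the spindle checkpoint protein BubR1, stood at 9.43, 9.66 and 9.67 in wild type, 9.55 and 9.56 in knockout and 9.85 and 9.99 in knockdown. Here too the knockdown arrays lay above all others (0.33 ± 0.102 SE, adjusted p = 0.251).

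Cdc25c, a phosphatase that activates Cdk1, stood at 7.57, 7.61 and 7.51 in wild type, 6.75 and 7.39 in knockout and 7.90 and 8.54 in knockdown. Knockout was below and knockdown above every wild-type array, but the clones of each deficient group lay farther apart than the wild-type clones. The differences were -0.49 ± 0.248 SE (adjusted p = 0.472) and 0.65 ± 0.248 SE (adjusted p = 0.325). Its relative Cdc25b stood at 7.83, 8.29 and 8.10 in wild type and 8.25 and 8.97 in knockdown, with knockdown array 1 within the wild-type range (0.54 ± 0.264 SE, adjusted p = 0.433).

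Cdk1, the mitotic kinase itself, stood at 9.74, 9.92 and 9.68 in wild type, 9.60 and 9.68 in knockout and 9.41 and 9.69 in knockdown. The knockout arrays lay just below wild type and one knockdown array overlapped it, with differences of -0.14 (adjusted p = 0.622) and -0.23 (adjusted p = 0.445). Top2a, which untangles sister chromatids, stood at 10.49, 10.15 and 10.11 in wild type, 10.04 and 10.14 in knockout and 10.11 and 10.04 in knockdown, with differences of -0.16 (adjusted p = 0.630) and -0.17 (adjusted p = 0.601). Foxm1, the transcription factor of mitotic genes, stood at 8.57, 8.51 and 8.68 in wild type, 8.28 and 8.51 in knockout and 8.45 and 8.47 in knockdown. Its differences were -0.19 (adjusted p = 0.480) and -0.13 (adjusted p = 0.609), and only its knockdown arrays both lay below wild type. The G2/M genes not described one by one (Cdc20, Aurka, Aurkb, Bub1, Mad2l1, Ttk, Kif11 and Cenpa) differed by -0.27 to 0.18 in knockout and -0.25 to 0.34 in knockdown.

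**Figure D3:**
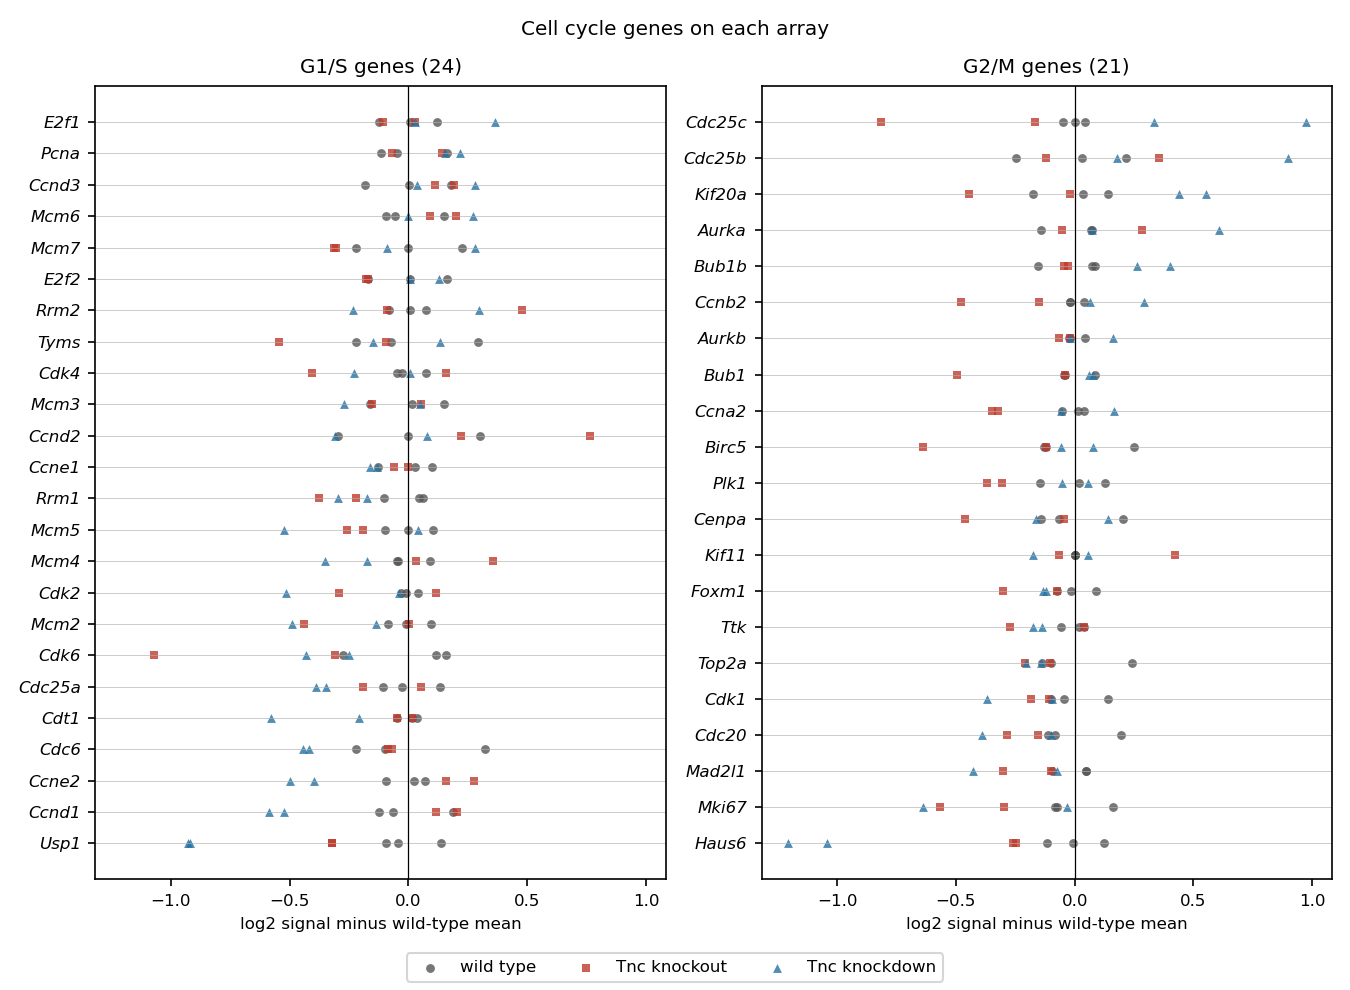
Log2 signal minus the wild-type mean (horizontal axis) for 24 G1/S genes and 21 G2/M genes; each point is 1 array of the wild-type (n = 3), knockout (n = 2) or knockdown (n = 2) group, and genes are ordered by the knockdown difference. Usp1 and Haus6 stand at the bottom of their panels with knockdown arrays lowest, and Cdc25c heads the G2/M panel with knockout and knockdown arrays on opposite sides of wild type.

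The lower G1/S median rested largely on knockdown array 1. Without it the median was -0.017 with 12 of 24 genes lower, 3 of them at an unadjusted p under 0.05, and without knockdown array 2 it was -0.29 with 20 lower. The 11 G1/S genes below wild type on both knockdown arrays were Ccnd1, Ccne1, Ccne2, Cdk2, Cdc25a, Cdc6, Cdt1, Mcm2, Mcm4, Rrm1 and Usp1. The G2/M median turned negative with wild-type array 2 (-0.043), wild-type array 3 (-0.051) or knockdown array 2 (-0.033) left out, and with arrays centred (-0.028).

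**Figure D4:**
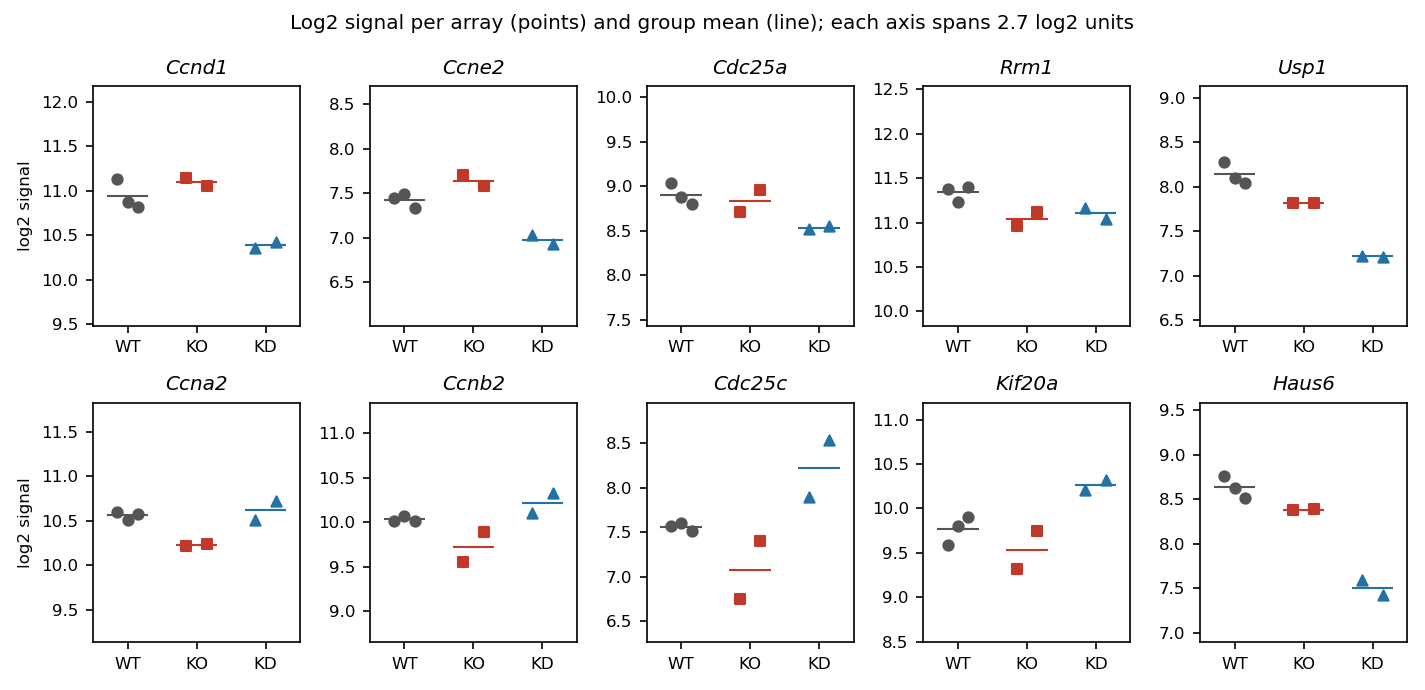
Log2 signal (vertical axis; every panel spans the same range) of 5 G1/S genes (top) and 5 G2/M genes (bottom) on each array of wild type (WT, n = 3), knockout (KO, n = 2) and knockdown (KD, n = 2); points are arrays and lines group means. Ccnd1, Ccne2 and Cdc25a have their lowest values on the knockdown arrays, Usp1 and Haus6 step down from wild type to knockout to knockdown, and Ccnb2, Cdc25c and Kif20a have knockdown above knockout.

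Knockout and knockdown were then compared with each other, which is also the test of whether their effects differ. They share the wild-type arrays as controls, and this comparison reuses the knockout and knockdown arrays already described. Haus6 was 1.83-fold higher in knockout than in knockdown (log2 difference 0.87 ± 0.108 SE, limma adjusted p = 0.0495) and was the 1 member called, where 0.375% of all genes passed (0.274% higher and 0.101% lower). Since Haus6 was listed for its knockdown values, this call is not independent of that choice. Its difference stayed between 0.78 and 0.96 over 17 alternatives. The adjusted p ran from 0.0388 to 0.307, and 3 of the 17 kept the call. Leaving out any 1 of the 7 arrays lost it, with adjusted p from 0.0875 to 0.188.

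More G2/M genes were lower and more G1/S genes higher in knockout than in knockdown, the latter not with quantile normalization, without knockdown array 1 or without knockout array 2. Of 24 G1/S genes 15 were higher (median 0.078) and of 21 G2/M genes 14 were lower (median -0.23). Over all genes 40% were higher and 59.2% lower, and their median was -0.050. By unadjusted p, 6 G1/S genes were higher and 0 lower, and 6 G2/M genes were lower and 1 higher, where 9.05% of all genes were higher and 8.87% lower. The groups did not overlap for 9 G1/S genes higher and 3 lower in knockout, and for 1 G2/M gene higher and 8 lower, against 17.8% higher and 27.2% lower over all genes. Usp1 and Haus6 are among those higher. Without them the unadjusted counts higher were 5 and 0, and those without overlap 8 and 0.

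Ccne2 differed by 0.67 ± 0.0951 SE (adjusted p = 0.0611), Usp1 by 0.60 ± 0.0973 SE (adjusted p = 0.0766) and Ccnd1 by 0.71 ± 0.122 SE (adjusted p = 0.0827). Mcm4, a helicase subunit, stood at 10.41 and 10.09 in knockout and 9.70 and 9.88 in knockdown, with wild type at 10.15, 10.01 and 10.01 (difference 0.46 ± 0.134 SE, adjusted p = 0.178). These 4 G1/S genes were higher on both knockout arrays than on either knockdown array. Among G2/M genes Cdc25c differed by -1.15 ± 0.272 SE (adjusted p = 0.138), Kif20a by -0.73 ± 0.171 SE (adjusted p = 0.137) and Ccna2 by -0.39 ± 0.0979 SE (adjusted p = 0.144), each lower on both knockout arrays.

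**Figure D5:**
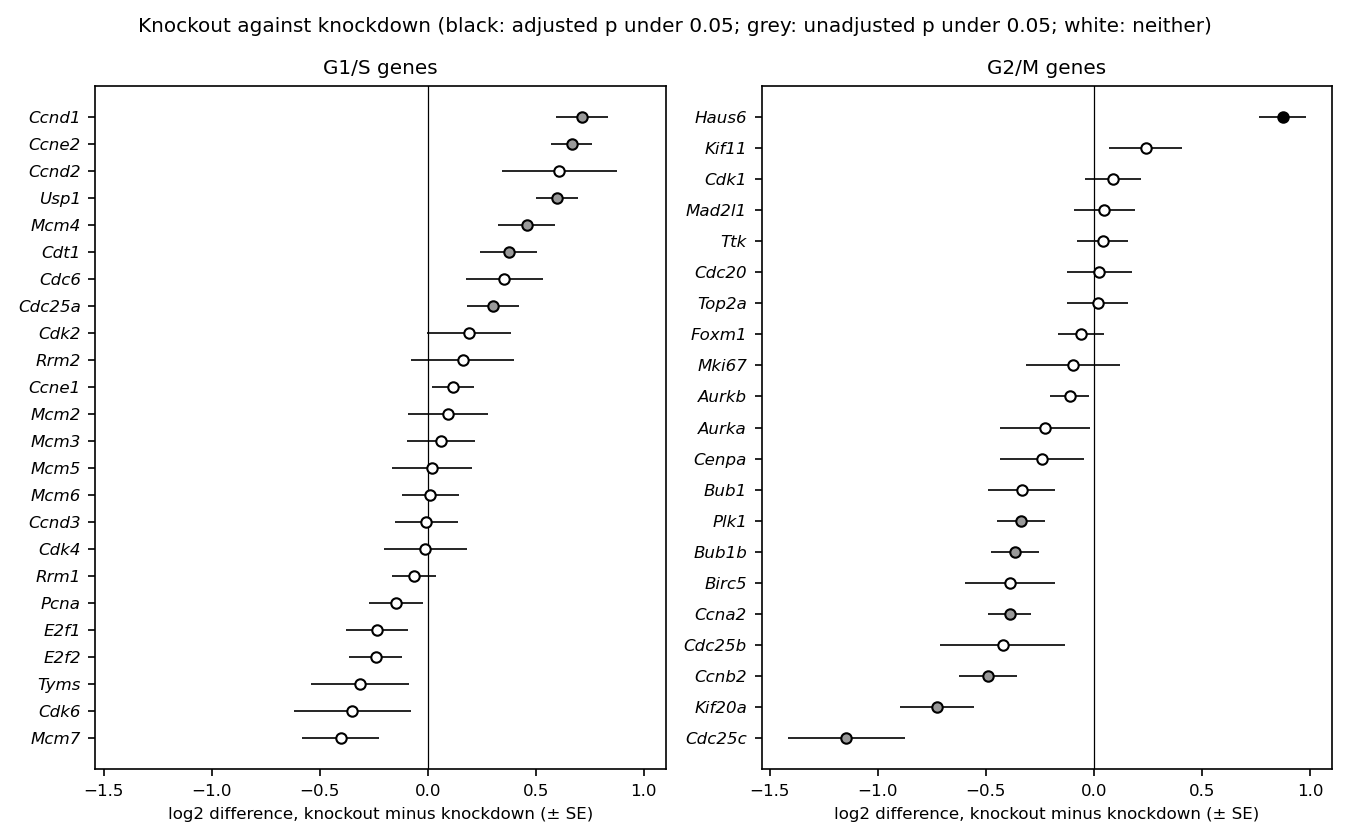
Log2 difference of knockout minus knockdown (horizontal axis; bars are ± 1 SE from limma, n = 2 against 2) for each G1/S and G2/M gene, ordered by size. Haus6, at 0.87, is the black point past an adjusted p of 0.05; grey points passed an unadjusted p of 0.05, among them Cdc25c at -1.15 and Ccnd1 at 0.71.

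Single arrays and the scaling moved both medians. The G1/S median was -0.075 without knockdown array 1, 0.25 without knockdown array 2, 0.16 without knockout array 1 and 0.0091 without knockout array 2. With quantile normalization it was -0.0074 (12 of 24 higher) and with arrays centred 0.15 (18 of 24 higher). The G2/M median was -0.058 without knockout array 1, -0.062 without knockdown array 2 and -0.37 without knockout array 2. With quantile normalization 18 of 21 G2/M genes were lower.

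With the knockout and knockdown means averaged and set against wild type, limma called 0 members, where 0.0298% of all genes passed (0.0179% higher and 0.0119% lower). Of the 45 members 32 were lower and 13 higher, against 49.9% and 50.1% of all genes. At an unadjusted p under 0.05, 4 were lower (Usp1, Haus6, Rrm1 and Cdk6) and 0 higher, where 5.78% of all genes were lower and 6.48% higher. Usp1 and Haus6 were listed for knockdown values that enter this average, and without them the count was 2. Without wild-type array 1, 2 or 3 the count over all members was 4, 5 and 5. The G1/S and G2/M medians were -0.12 and -0.14 with all arrays, and -0.21 and -0.22 without both arrays numbered 2. With single arrays left out they ran from -0.19 to -0.083 and from -0.18 to -0.057. All 4 deficient arrays lay below all wild-type arrays for Usp1, Haus6 and Rrm1 and above them for 0 members, against 3.55% and 4.15% of all genes. Without Usp1 and Haus6, 1 of 23 G1/S and 0 of 20 G2/M genes lay below. Usp1 differed by -0.62 ± 0.0743 SE (adjusted p = 0.106), Haus6 by -0.69 ± 0.0827 SE (adjusted p = 0.106) and Rrm1 by -0.27 ± 0.0786 SE (adjusted p = 0.295).

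Other genes of the pathway were read from lists kept apart from the members, and limma called 0 of them in knockout or in knockdown. The counts of each list stand beside the shares over all genes tested. Of all genes 57.3% were lower and 42.6% higher in knockout, and 43.2% and 56.8% in knockdown. Of the CDK inhibitors, which block cyclin-bound kinases, 6 of 7 were tested and 0 reached an unadjusted p under 0.05. Cdkn2a, the locus of p16 and Arf, stood at 8.85, 8.96 and 8.90 in wild type, 9.22 and 8.82 in knockout and 8.48 and 9.27 in knockdown, so the clones of each deficient group lay on both sides of the wild-type range. Cdkn2b, which encodes p15, differed by 0.53 (adjusted p = 0.438) in knockout and Cdkn1c, which encodes p57, by -0.51 (adjusted p = 0.471) in knockout and -0.27 (adjusted p = 0.675) in knockdown. Cdkn2c, which encodes p18, differed by 0.12 (adjusted p = 0.878) in knockdown. Cdkn1a was not analysed here.

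Of 33 replication genes tested beyond the members, 23 were lower in knockout (median -0.11) and 25 in knockdown (median -0.14). At an unadjusted p under 0.05, 3 were lower in knockout and 7 in knockdown, where 5.5% and 6.99% of all genes were. In the other direction 0 were higher in either, where 7.33% and 7.12% of all genes were. Orc1, a subunit of the origin recognition complex, differed by -0.84 (adjusted p = 0.169) in knockdown, and Rpa2, of the single-strand binding protein, by -0.56 (adjusted p = 0.208). In knockout Rfc5, of the clamp loader, differed by -0.47 (adjusted p = 0.332) and Cdc7, the kinase that fires origins, by -0.43 (adjusted p = 0.381).

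Of 16 genes of the Rb, E2F and DREAM list, 11 were lower in knockdown (median -0.23), 4 of them at an unadjusted p under 0.05, where 43.2% of all genes were lower and 6.99% at that p. E2f4, the E2F of the repressive DREAM complex, differed by -0.58 (adjusted p = 0.123) and Tfdp2, a dimer partner of E2Fs, by -0.35 (adjusted p = 0.193). In knockout 9 were lower (median -0.039), 1 of them at an unadjusted p under 0.05, and 2 were higher at that p, where 5.5% of all genes were lower and 7.33% higher. E2f8, an atypical repressor, differed by -0.82 (adjusted p = 0.156) and E2f3, an activator, by 0.35 (adjusted p = 0.329).

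Of 11 p53 arrest genes tested, 8 were higher in knockout (median 0.50), 5 of them at an unadjusted p under 0.05, and 4 were higher in knockdown (median -0.12), 1 of them at that p, with 1 lower. Over all genes 42.6% were higher in knockout and 56.8% in knockdown, 7.33% and 7.12% at that p, and 6.99% were lower at it in knockdown. Zmat3, a p53 target, differed by 1.26 (adjusted p = 0.0783) in knockout and Sesn2, a stress-induced sestrin, by 0.80 (adjusted p = 0.314). In knockdown Plk3, a stress-responsive polo kinase, differed by -0.97 (adjusted p = 0.162) and Ccng2, a cyclin of quiescent cells, by 0.76 (adjusted p = 0.174). Trp53 was not analysed here.

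Of 43 mitotic genes beyond the members, 27 were lower in knockout (median -0.083) and 24 in knockdown (median -0.018). By unadjusted p, 4 passed as lower and 3 as higher in knockout, where 5.5% and 7.33% of all genes passed. In knockdown 6 passed as lower and 3 as higher, where 6.99% and 7.12% of all genes passed. Kif2c, a microtubule-depolymerising kinesin of the centromere, differed by -0.45 (adjusted p = 0.127) in knockout and Nusap1, a spindle protein, by 0.43 (adjusted p = 0.222). Kif23, the motor of centralspindlin, differed by -0.43 (adjusted p = 0.162) in knockdown and the condensin gene Smc2 by -0.74 (adjusted p = 0.208).

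Of 13 augmin and gamma-tubulin genes, the partners of Haus6, 7 were lower in knockdown (median -0.0016) and 9 in knockout (median -0.094). Unadjusted p was under 0.05 for 3 lower and 1 higher in knockdown (all genes 6.99% and 7.12%), and for 2 lower and 1 higher in knockout (all genes 5.5% and 7.33%). Tubgcp3, of the gamma-tubulin ring complex, differed by -0.40 (adjusted p = 0.181) in knockdown and -0.28 (adjusted p = 0.293) in knockout. Nedd1, which carries gamma-tubulin to the spindle, differed by -0.51 (adjusted p = 0.191) in knockdown, and Tubgcp6 by 0.47 (adjusted p = 0.185) in knockout.

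Of 17 Fanconi anaemia and USP1-related genes, 13 were lower in knockdown (median -0.15) and 12 in knockout (median -0.058). Unadjusted p was under 0.05 for 2 lower and 1 higher in knockdown (all genes 6.99% and 7.12%), and for 2 lower in knockout (all genes 5.5%). Fancb, of the Fanconi core complex, differed by -0.59 (adjusted p = 0.195) and Rad18, a PCNA ubiquitin ligase, by -0.33 (adjusted p = 0.238) in knockdown. In knockout Fanca, also of the core complex, differed by -0.61 (adjusted p = 0.144) and Fanci, the partner of FANCD2, by -0.51 (adjusted p = 0.279).

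Of 14 growth input genes, which act upstream of G1 progression, 9 were lower in knockdown (median -0.094) and 5 in knockout (median 0.090). Unadjusted p was under 0.05 for 3 lower in knockdown (all genes 6.99%), and for 2 lower and 2 higher in knockout (all genes 5.5% and 7.33%). Jun, a subunit of the AP-1 factor, differed by -0.72 (adjusted p = 0.117) in knockdown and -0.56 (adjusted p = 0.130) in knockout. Fosl1, another AP-1 subunit, differed by -0.44 (adjusted p = 0.288) in knockdown, and Cdk7, the CDK-activating kinase, by 0.40 (adjusted p = 0.152) in knockout.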

How the data were processed

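RNA of 7 clones was hybridised to 1 array each. The values are log2 signals that the authors deposited, made with the affy package in R 2.8.0 per the submitters' processing notes. How they were summarised, background-corrected and normalized is not given in any source at hand. That the scale is log2 was inferred from the range of values (array medians 5.38 to 5.49, correlations between arrays 0.979 to 0.990). The number of arrays limits the precision.

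Of 34760 probe sets, 21640 carried 1 gene symbol, 1321 several and 11799 none in the annotation used. A gene was tested if its signal exceeded percentile 25 of an array in 2 or more arrays. Limma 3.58.1 in R 4.3.3 fitted group means over all 7 arrays (lmFit, eBayes, two-sided, 4 residual and 2.06 prior degrees of freedom), and p-values were adjusted by Benjamini-Hochberg over 16801 genes, with 0.05 as the threshold. The code was tested on simulated data.

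Members, phase groups, pathway lists and tests were chosen with earlier results of these data known. Array values are given for members past the threshold and for the 6 of smallest p per phase group in knockout and in knockdown. They are also given for the 4 of smallest p per phase group in knockout against knockdown, and for 16 genes picked by role (1 of them, Ccnb1, without expression values). For each pathway list the 2 genes of smallest p in each of those comparisons with wild type are named, plus Cdkn2a. Alternatives were no filter, a filter at the array median, quantile normalization, centred arrays, the mean of probe sets, array weights, a variance trend, a replicate block, the compared groups alone, each array or both arrays numbered 2 left out, members without Haus6 and Usp1, and a narrower CHR motif.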

Additional observations from a re-analysis of the deposited data

Results flagged for a closer look

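Haus6 is given here for the gap between its knockout and knockdown values: knockout exceeded knockdown by 0.87 on the log2 scale (limma, adjusted p = 0.0495). Haus6 entered the list for its low knockdown values, so this is a description and no independent test, and 3 of 17 alternatives kept the call (adjusted p 0.0388 to 0.307). Groups of 2 or 3 arrays were too small to test for a single outlying array.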

How the results depend on the processing

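Against wild type, limma called 0 members in knockout, in knockdown and in both averaged under every alternative run, with 4 to 16, 8 to 11 and 2 to 15 members at an unadjusted p under 0.05. Over all genes the calls ran from 1 to 79 in knockout (28 as reported), 0 to 3 in knockdown (3), 0 to 10 in both averaged (5) and 0 to 137 between knockout and knockdown (63). Between knockout and knockdown, 0 members were called with no filter, the mean of probe sets, array weights, the variance trend, the replicate block, the compared groups alone, both arrays numbered 2 left out, or the list without Haus6 and Usp1, and 2 (Ccne2 and Haus6) with arrays centred. With single arrays left out the count was 0 to 0. The replicate block left 2 genes called in knockout, 0 in knockdown and 2 between them. Same-numbered clones correlated at -0.074 to 0.20 in their deviations from group means, and differently numbered clones at -0.21 to 0.21. In a group of 2 clones the deviations mirror each other, so these values cannot decide whether clones are paired. The numbers were not taken to pair clones.

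With single arrays left out, the G2/M median ran from -0.27 to -0.10 in knockout, the G1/S median from -0.29 to -0.017 in knockdown, and between knockout and knockdown the medians from -0.075 to 0.25 (G1/S) and -0.37 to -0.058 (G2/M). Signs changed for these differences, none past the threshold. In knockout Ccne1 stood at 0.017 with arrays centred, 0.028 with array weights and 0.020 with the replicate block, and E2f1 at 0.0081 with arrays centred and 0.021 with the block. Without both arrays numbered 2, Mcm2 stood at 0.0011 and Pcna at -0.069 in knockout and Ccna2 at -0.056 in knockdown. Plk1 in knockdown stood at -0.028 with arrays centred and -0.0054 with array weights. Leaving out single arrays gave these ranges in knockout: Ccne1 -0.094 to 0.020, Cdk4 -0.40 to 0.16, Mcm2 -0.44 to 0.0011, Pcna -0.069 to 0.14 and E2f1 -0.11 to 0.029. In knockdown the ranges were Ccnd2 -0.31 to 0.077, Ccna2 -0.056 to 0.17, Cdk4 -0.23 to 0.0046 and Plk1 -0.071 to 0.065. The cause of these changes was not tested. With TTTGAA alone as CHR, 64.7% of G2/M, 10.5% of G1/S and 20.2% of all genes held it. All members measured lay above the array medians, and the number of clones limits the precision.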
